A study of Homo sapiens with 2 samples.

Results

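Immediate early genes were followed in 2 single-cell libraries of HepaRG, an established human hepatic cell line sold as a differentiated culture. The set held 10 genes, FOS, FOSB, JUN, JUNB, JUND, EGR1, IER2, ZFP36, DUSP1 and MYC, found by symbol among the 36601 genes of the files, and each symbol matched 1 gene. Both libraries were vehicle controls: after 7 days in culture the cells received 0.1% dimethyl sulfoxide (DMSO), the solvent, for 24 h. The stressor-treated cultures of the series were not analysed here. Within each library the kept cells were split into 3 classes. ALB-high cells had at least 50 albumin (ALB) transcripts per 10000 unique molecular identifiers (UMIs, each standing for 1 captured RNA molecule), dividing cells had at least 10 per 10000 from TOP2A, MKI67 and CENPF together, and all others were the remaining cells. None of the 10 immediate early genes entered these thresholds.

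Immediate early genes are switched on within minutes of a growth factor, cytokine or stress signal, from transcription factors already present in the cell and without new protein synthesis. FOS and FOSB pair with JUN, JUNB or JUND to form AP-1, a transcription factor, while EGR1 is a zinc finger transcription factor, IER2 a nuclear regulator of transcription and MYC a transcription factor of growth and ribosome production. ZFP36 binds AU-rich elements and speeds the decay of messenger RNAs, DUSP1 is a phosphatase that switches MAP kinases off, and both act as feedback on the signal. In liver these genes are known for their induction after partial hepatectomy and during the isolation of cells. Per the labels' protocols, the cells here were released at 37 °C, for 11 min in trypsin with the transcription inhibitor actinomycin D (0.1 mg/ml) and the translation inhibitor anisomycin (1 mg/ml) and then for 15 min with collagenase added, before fixation. The part of this step in the levels below was not tested.

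Promoters are shown for FOS, FOSB, EGR1 and JUN, whose transcripts were higher together in ALB-high cells, and for DUSP1, whose transcript was not called different there. The sequences are from RefSeq (GRCh38.p14) and run 5′ to 3′ on the strand of the gene, from 250 bases before to 50 bases after its start. Capitals mark 4 motifs searched on both strands: the CArG box (CC, 6 bases of A or T, GG), TGACG, TGACGTCA, which contains TGACG, and TATAAA.
FOS, chr14:75278578-75278877, plus strand: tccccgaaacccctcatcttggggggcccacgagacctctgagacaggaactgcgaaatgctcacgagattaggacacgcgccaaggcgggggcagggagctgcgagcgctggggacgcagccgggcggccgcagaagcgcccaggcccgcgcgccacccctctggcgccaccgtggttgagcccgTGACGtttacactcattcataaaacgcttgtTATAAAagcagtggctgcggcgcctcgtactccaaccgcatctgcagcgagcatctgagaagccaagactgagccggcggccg
FOSB, chr19:45467746-45468045, plus strand: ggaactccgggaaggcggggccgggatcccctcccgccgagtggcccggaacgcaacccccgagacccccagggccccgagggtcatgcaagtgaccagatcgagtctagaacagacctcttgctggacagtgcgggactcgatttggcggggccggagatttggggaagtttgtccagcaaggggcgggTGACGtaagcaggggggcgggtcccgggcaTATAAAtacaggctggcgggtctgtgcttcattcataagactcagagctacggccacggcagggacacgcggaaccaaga
EGR1, chr5:138465229-138465528, plus strand: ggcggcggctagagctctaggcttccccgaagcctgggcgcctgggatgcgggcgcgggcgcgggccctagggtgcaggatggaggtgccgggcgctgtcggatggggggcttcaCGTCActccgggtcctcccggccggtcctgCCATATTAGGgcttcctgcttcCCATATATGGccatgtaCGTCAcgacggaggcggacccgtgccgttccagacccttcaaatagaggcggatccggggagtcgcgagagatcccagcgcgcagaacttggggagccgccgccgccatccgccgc
JUN, chr1:58783998-58784297, minus strand: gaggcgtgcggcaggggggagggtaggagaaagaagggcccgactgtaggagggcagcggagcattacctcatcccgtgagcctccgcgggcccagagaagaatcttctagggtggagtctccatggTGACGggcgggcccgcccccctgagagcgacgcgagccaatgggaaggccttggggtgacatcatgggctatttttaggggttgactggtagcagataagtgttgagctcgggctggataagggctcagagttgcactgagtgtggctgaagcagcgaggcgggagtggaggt
DUSP1, chr5:172771146-172771445, minus strand: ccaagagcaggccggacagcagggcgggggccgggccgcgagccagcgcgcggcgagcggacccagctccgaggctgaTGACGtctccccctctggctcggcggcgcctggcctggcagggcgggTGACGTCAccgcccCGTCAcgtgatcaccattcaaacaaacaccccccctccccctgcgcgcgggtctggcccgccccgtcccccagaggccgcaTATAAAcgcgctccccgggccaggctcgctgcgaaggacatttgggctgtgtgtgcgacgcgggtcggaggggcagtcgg
RefSeq promoters were matched for 9 of the 10 genes. TGACG stood in 8 of these 9, against 24.6% of 35116 promoters of this length, and began 64 bases before the start of FOS and 60 bases before that of FOSB. The CArG box was in 1 of the 9, EGR1, which held 2, beginning 105 and 83 bases upstream, against 1.29% of all promoters. TATAAA was in 4 of the 9 (FOS, FOSB, JUNB and DUSP1) against 11.5%, and the full TGACGTCA in 2 (DUSP1 and JUND) against 1.85%. The AP-1 motif TGANTCA was in 0 of the 9 windows, against 7.71%. Genes that were higher in ALB-high cells and genes that were not both held TGACG. These are matches of letters in a window that ends 250 bases upstream, not sites of binding. Sequence farther upstream and variants of a motif were not searched, so a gene without a match may still hold such a site.

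Replicate 1 held 4591 barcodes and 85475317 UMIs, and replicate 2 held 4998 barcodes and 57246647 UMIs. Filtering left 4454 and 4894 cells. ALB-high cells made up 306 cells in replicate 1 and 407 in replicate 2, shares of 6.87% and 8.32% with exact 95% Clopper-Pearson limits of 6.14 and 7.65% and of 7.56 and 9.13%. Dividing cells numbered 1435 and 1606, and remaining cells 2713 and 2881. The labels call all cells hepatocytes; 16 of 16 tested hepatocyte markers were higher in ALB-high than in remaining cells. The summed level of the 17 markers was 12725 and 12058 CPM (counts scaled to a total of 1000000) in ALB-high cells of replicates 1 and 2, 622 and 648 CPM in dividing cells, and 1168 and 1292 CPM in remaining cells. Free RNA was not removed, so part of the albumin in cells below the threshold may come from the suspension, which was not tested. Median depth was 20653 and 12441 UMIs per ALB-high cell, 20834 and 12137 per dividing cell, and 16225 and 9602 per remaining cell, and the median mitochondrial share was 13.5 and 13.6%, 7.90 and 8.05%, and 9.16 and 9.38%. Of 10 immune markers, 7 were at 0 in ALB-high cells of both libraries. Their total UMIs were few (7056207 and 5745590, against 46798021 and 30308857 in remaining cells), so a 0 is more likely there. The summed level of the 10 was 14.5 and 14.4 CPM in ALB-high cells, against 12.1 and 11.6 CPM in remaining cells. Of 2 tested, CD14 was higher in ALB-high than in remaining cells and CD68 was not called. The libraries shared 10 barcodes. The labels give both the biological replicate number 1, so an SD or p-value describes how far these libraries differ, which may be technical variation only.

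Over all cells the 10 genes spanned a wide range of levels, here summed UMIs scaled in this way, which count each molecule at its 3′ end and need no scaling by length. DUSP1 was the most abundant at 127.5 ± 2.54 CPM (SD, n = 2) and ranked 1292nd among the 30507 genes with a count. JUND followed at 85.6 ± 1.53 CPM, then MYC at 43.6 ± 1.29, JUNB at 38.2 ± 0.96, JUN at 34.2 ± 0.56, IER2 at 33.9 ± 0.36 and ZFP36 at 26.5 ± 0.53 CPM. The lowest were FOS at 11.1 ± 0.38, EGR1 at 10.3 ± 0.66 and FOSB at 4.84 ± 0.05 CPM. JUN and IER2 were the only neighbours in this order whose libraries overlapped. The ranks of FOS (9875th) and FOSB (12111th) placed the AP-1 subunits that are usually the most inducible far below JUND, the subunit known for steady expression. Of the 10 genes, 5 lie on chromosome 19 in GRCh38: in GENCODE 29, JUNB spans 12791496 to 12793315 there, IER2 13150415 to 13154908, JUND 18279760 to 18281622, ZFP36 39406813 to 39409412 and FOSB 45467995 to 45475179. FOSB overlaps ERCC1, JUNB overlaps HOOK2, DUSP1 overlaps AC022217.3 and IER2 overlaps AC011446.2 on the opposite strand in GENCODE 29. Whether the counting used strand is not given in the sources used here, so these counts could hold reads of the partner.

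**Figure D1:**
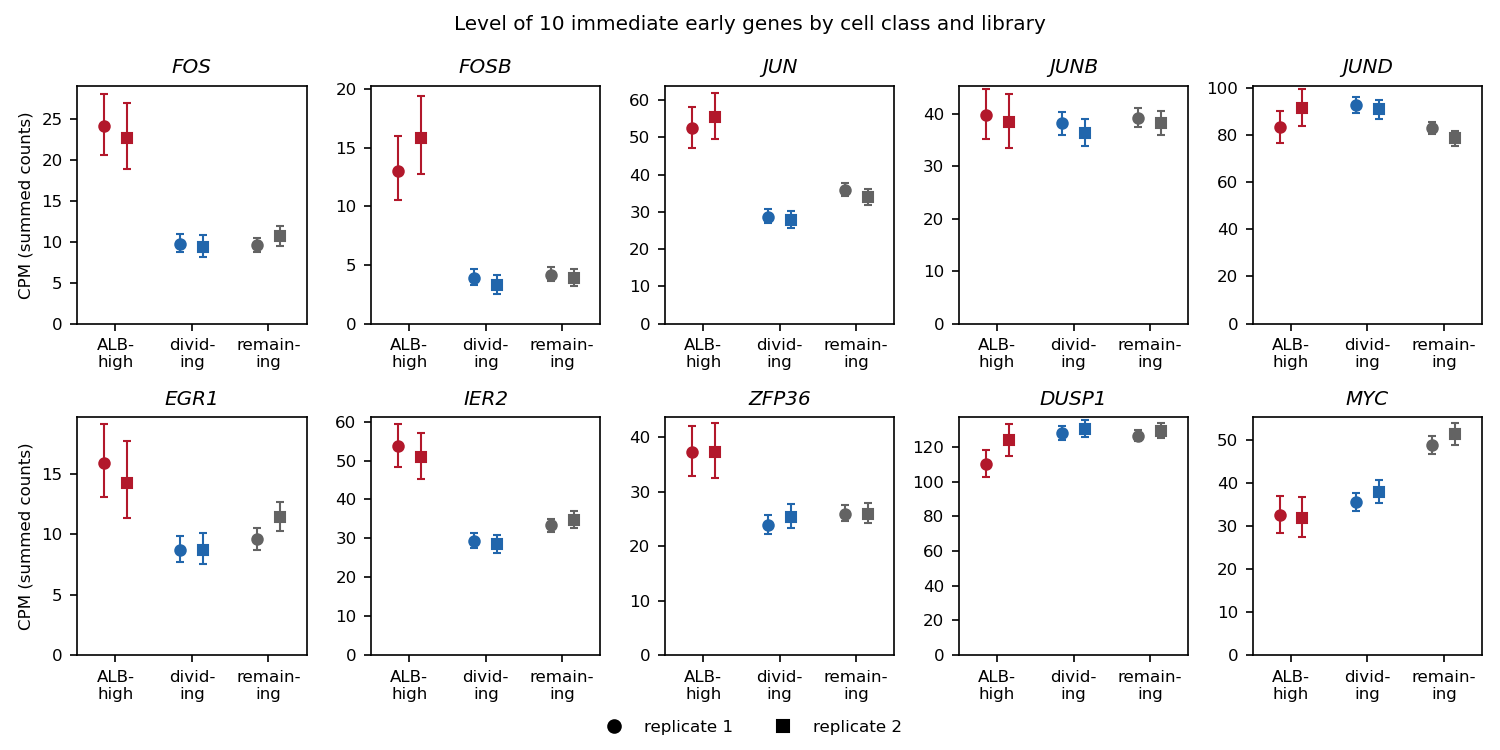
Level of each gene in CPM of summed counts (y axis from 0) by cell class and library (circles replicate 1, squares replicate 2), with bars for the 95% exact Poisson interval, which covers counting error only. FOS stood at 24.1 and 22.6 CPM in ALB-high cells against 9.55 and 10.6 CPM in remaining cells. DUSP1 stood slightly lower in ALB-high cells (110 and 124 CPM) than in remaining cells (127 and 130 CPM), and MYC was lowest in ALB-high cells.

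ALB-high cells carried more FOS, FOSB, JUN, IER2, EGR1 and ZFP36 transcript than remaining cells in both libraries, and less MYC. FOS had 24.1 and 22.6 CPM in ALB-high cells of replicates 1 and 2, against 9.55 and 10.6 CPM in remaining cells. FOSB had 13.0 and 15.8 CPM in ALB-high cells, against 4.17 and 3.89 CPM in remaining cells. The classes did not overlap for either gene, and both libraries gave nearly the same levels. Here and below, non-overlap compares only 2 libraries per class. The share of all genes without overlap was not counted, so it is a description only. The log2 fold change of ALB-high over remaining cells was 1.35 ± 0.11 (SE) for FOS and 1.95 ± 0.16 for FOSB (adjusted p = 2.33e-09 and 1.9e-09 in edgeR's quasi-likelihood test). FOSB, the scarcest of the set, had the largest fold change of the 10 genes. Its ALB-high values rest on 92 and 91 UMIs.

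JUN, the main partner of the FOS proteins, had 52.4 and 55.5 CPM in ALB-high cells, against 35.9 and 33.9 CPM in remaining cells. IER2 had 53.7 and 50.8 CPM in ALB-high cells, against 33.4 and 34.8 CPM in remaining cells. Neither gene overlapped between the classes, and both had a log2 fold change of 0.75 ± 0.07 (adjusted p = 1.27e-08 for JUN and 1.41e-08 for IER2 in edgeR's quasi-likelihood test). ZFP36 had 37.3 and 37.2 CPM in ALB-high cells, against 26.0 CPM in remaining cells of each library (log2 fold change 0.65 ± 0.08, edgeR adjusted p = 6.03e-07). EGR1 had 15.9 and 14.3 CPM in ALB-high cells, against 9.57 and 11.4 CPM in remaining cells (0.67 ± 0.13, edgeR adjusted p = 2.2e-04). EGR1 was the least steady of these genes: with all cells thinned to 4000 UMIs the call was lost (0.59, edgeR adjusted p = 0.0754). With replicate 2 alone the log2 ratio of its CPM values was 0.32. That ratio is scaled by totals, unlike the fold changes above, so the 2 are not the same measure.

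The JUN family did not move as a block. JUNB, a less active partner than JUN on many promoters, had 39.8 and 38.5 CPM in ALB-high cells, against 39.2 and 38.2 CPM in remaining cells. JUND had 83.3 and 91.5 CPM in ALB-high cells, against 83.1 and 78.6 CPM in remaining cells. JUNB overlapped between the classes. JUND was called higher at a log2 fold change of 0.23 ± 0.06 (edgeR adjusted p = 0.00185), while JUNB was not called (0.14 ± 0.07, edgeR adjusted p = 0.102). The JUND call was lost in thinned cells (edgeR adjusted p = 0.125). It was also lost with library totals in place of the trimmed mean of M values (TMM) as scaling (edgeR adjusted p = 0.131). With replicate 1 alone the log2 ratio of JUND CPM, which is scaled by totals and not by TMM, was 0.00.

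DUSP1 and MYC stood apart from the genes that were higher. DUSP1 had 110 and 124 CPM in ALB-high cells, against 127 and 130 CPM in remaining cells. The CPM values did not overlap, while the TMM-scaled log2 fold change was -0.01 ± 0.05 (edgeR adjusted p = 0.907). With library totals as scaling DUSP1 was called lower (-0.14, edgeR adjusted p = 0.0201). MYC had 32.6 and 31.9 CPM in ALB-high cells, against 48.8 and 51.4 CPM in remaining cells. The MYC classes did not overlap, and MYC fell by 0.50 ± 0.07 on the log2 scale (edgeR adjusted p = 6.92e-06).

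In all, edgeR's quasi-likelihood test called 7 of the 10 genes higher in ALB-high than in remaining cells and 1 lower, against 24.3% of 19098 tested genes called higher, 23.9% called lower and 48.2% called in either direction. The median log2 fold change was 0.66 over the 10 genes and -0.02 over all genes. With library totals as scaling the median over all genes was -0.15, and the share of calls that were higher was 36.3%, against 50.3% with TMM. The fold changes of FOS, FOSB, JUN, IER2, ZFP36 and MYC kept their direction and passed the threshold in all 17 alternatives that gave a test. The mitochondrial share was higher in ALB-high cells, as given above. In cells of 8 to 14% mitochondrial UMIs only, the log2 fold changes of ALB-high over remaining cells were 1.10 for FOS, 1.66 for FOSB, 0.87 for JUN, 0.63 for IER2, 0.51 for EGR1, 0.49 for ZFP36, 0.31 for JUND and -0.34 for MYC, and all 8 remained called (edgeR adjusted p = 0.0104 for EGR1 and 0.00398 for MYC).

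**Figure D2:**
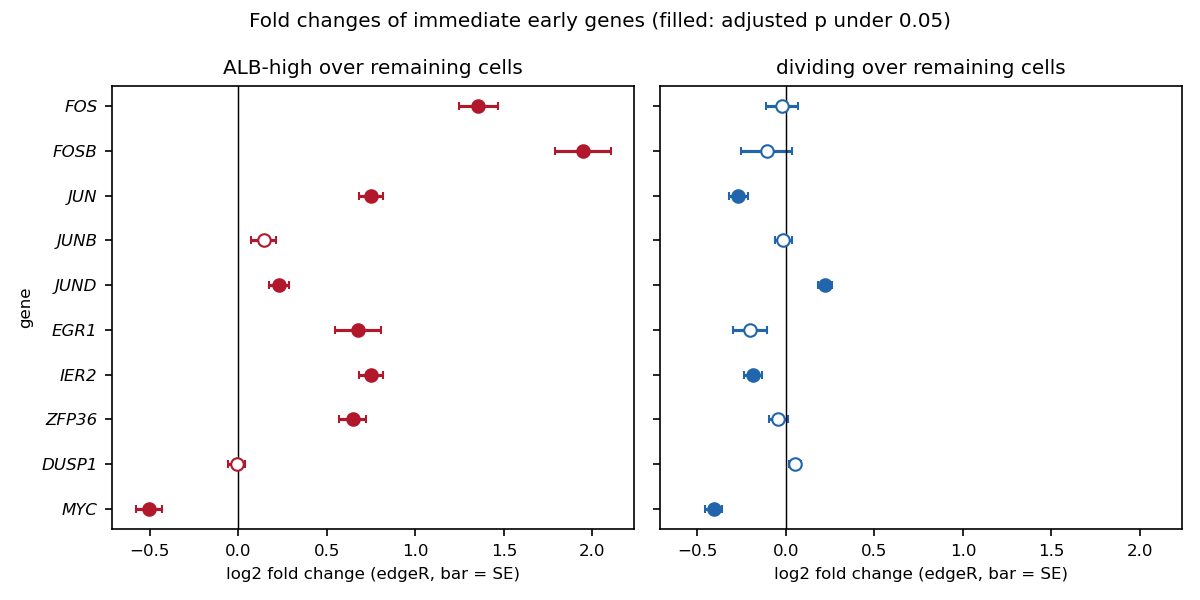
Log2 fold change of each gene for ALB-high over remaining cells (left) and dividing over remaining cells (right), with bars of 1 SE and filled points where edgeR's adjusted p was under 0.05. FOSB (1.95) and FOS (1.35) lie farthest to the right for ALB-high cells, and MYC lies left of 0 in both panels (-0.50 and -0.41).

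Against dividing cells the same genes stood higher in ALB-high cells. Of the 10 genes, 6 were called higher and 0 lower, against 27.0% and 30.0% of all genes tested and 56.9% in either direction. The log2 fold changes of ALB-high over dividing cells were 2.06 ± 0.17 for FOSB, 1.37 ± 0.11 for FOS, 1.01 ± 0.07 for JUN, 0.94 ± 0.07 for IER2, 0.88 ± 0.14 for EGR1 and 0.69 ± 0.08 for ZFP36 (edgeR adjusted p from 1.94e-10 to 1.61e-05). JUND (0.01 ± 0.06), JUNB (0.16 ± 0.07), DUSP1 (-0.06 ± 0.05) and MYC (-0.10 ± 0.08) were not called. Both comparisons use the same ALB-high sums.

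Dividing cells differed less from remaining cells. Among the set 3 genes were called lower and 1 higher. These shares were near or under those over all genes, so they give no direction of the set. MYC had 35.6 and 38.0 CPM in dividing cells, against 48.8 and 51.4 CPM in remaining cells, and fell by 0.41 ± 0.05 on the log2 scale (edgeR adjusted p = 2.89e-07). JUN had 28.7 and 27.8 CPM in dividing cells, against 35.9 and 33.9 CPM in remaining cells, and fell by 0.27 ± 0.05 (edgeR adjusted p = 2.64e-04). IER2 had 29.4 and 28.6 CPM in dividing cells, against 33.4 and 34.8 CPM in remaining cells, a decrease whose call depended on the settings (-0.19 ± 0.05, edgeR adjusted p = 0.00603). The IER2 call was lost with DESeq2 (adjusted p = 0.135), in thinned cells (edgeR adjusted p = 0.154) and in cells of 8 to 14% mitochondrial UMIs (edgeR adjusted p = 0.109). None of these 3 genes overlapped between the classes. JUND had 92.7 and 91.0 CPM in dividing cells, against 83.1 and 78.6 CPM in remaining cells, and rose by 0.22 ± 0.04 (edgeR adjusted p = 7.85e-05). The JUND call was lost with dividing cells set at 20 per 10000 or more (edgeR adjusted p = 0.0571).

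FOS had 9.75 and 9.35 CPM in dividing cells, against 9.55 and 10.6 CPM in remaining cells, and FOSB had 3.91 and 3.29 CPM in dividing cells, against 4.17 and 3.89 CPM in remaining cells. Both genes overlapped between the classes, and neither was called (log2 fold change -0.02 ± 0.09 and -0.11 ± 0.14). JUNB (-0.01 ± 0.05), ZFP36 (-0.04 ± 0.06), DUSP1 (0.05 ± 0.03) and EGR1 (-0.20 ± 0.10, edgeR adjusted p = 0.0871) were not called either. In sum 1 of the 10 genes was called higher and 3 lower, a share near or under the background, against 25% and 24.0% of all genes tested and 49.1% in either direction. The median log2 fold change was -0.07 over the 10 genes and -0.02 over all genes.

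Among cells under the dividing threshold, levels were also taken along albumin, in 6 bins from under 1 to 150 or more ALB UMIs per 10000. FOS ran 8.62, 10.1, 15.0, 13.2, 17.4 and 32.5 CPM from the lowest to the highest bin in replicate 1, and 9.60, 9.90, 14, 16.9, 21.0 and 25 CPM in replicate 2. FOSB ran 3.32, 5.20, 7.50, 7.61, 10.0 and 18.5 CPM in replicate 1, and 3.35, 3.99, 5.62, 5.99, 12.3 and 22.6 CPM in replicate 2. Both genes were thus already above their lowest-bin level in the bin of 5 to 15, below the ALB-high threshold. In replicate 2 that bin held only 30 FOS and 12 FOSB UMIs, and its 95% Poisson intervals overlapped those of the lowest bin for both genes. JUN had another shape: 38.1, 32.0, 24.4, 31.9, 40.4 and 69.2 CPM in replicate 1, and 37.0, 28.0, 29, 33.0, 42.3 and 82.4 CPM in replicate 2. In both libraries JUN was lower in the bins from 1 to 50 than in cells with almost no albumin, and highest in the top bin. Most 95% Poisson intervals of these lower bins overlapped that of the lowest bin. The interval lay clear of it only in the bin of 5 to 15 in replicate 1 and of 1 to 5 in replicate 2. JUND also dipped, with 85.8 and 84.4 CPM in the lowest bin, 69.3 and 73.8 CPM in the bin of 15 to 50 and 94.2 and 99.4 CPM in the top bin. In replicate 2 the JUND intervals of the first 2 of these bins overlapped. ZFP36 had 23.9 CPM in the lowest bin of each library and 42.1 and 35.3 CPM in the top bin. IER2 stayed between 31.4 and 43.4 CPM over the first 5 bins of replicate 1 and between 33.3 and 39.1 CPM in replicate 2, and reached 65.6 and 65.0 CPM in the top bin. EGR1 had 8.56 and 11.0 CPM in the lowest bin and 18.5 and 12.2 CPM in the top bin. In replicate 2 its 95% Poisson intervals overlapped between these bins. JUNB had 39.7 and 37.9 CPM in the lowest bin and 43.2 and 42.9 CPM in the top bin, with overlapping intervals in both libraries.

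MYC was level over the first 4 bins, at 47.4 to 51.7 CPM in replicate 1 and 48.7 to 54.8 CPM in replicate 2. MYC was 37.7 and 39.4 CPM in the bin of 50 to 150, and 28.2 and 23.1 CPM in the top bin. The MYC difference was thus seen within ALB-high cells as well. DUSP1 was 126 and 128 CPM in the lowest bin and 104 and 115 CPM in the top bin. The median mitochondrial share moved with albumin, with 8.72 and 8.79% in the lowest bin and 14.3 and 14.6% in the top bin, and its part in these trends was not tested. The top bin held 131 and 156 cells and the bin of 5 to 15 held 142 and 176.

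**Figure D3:**
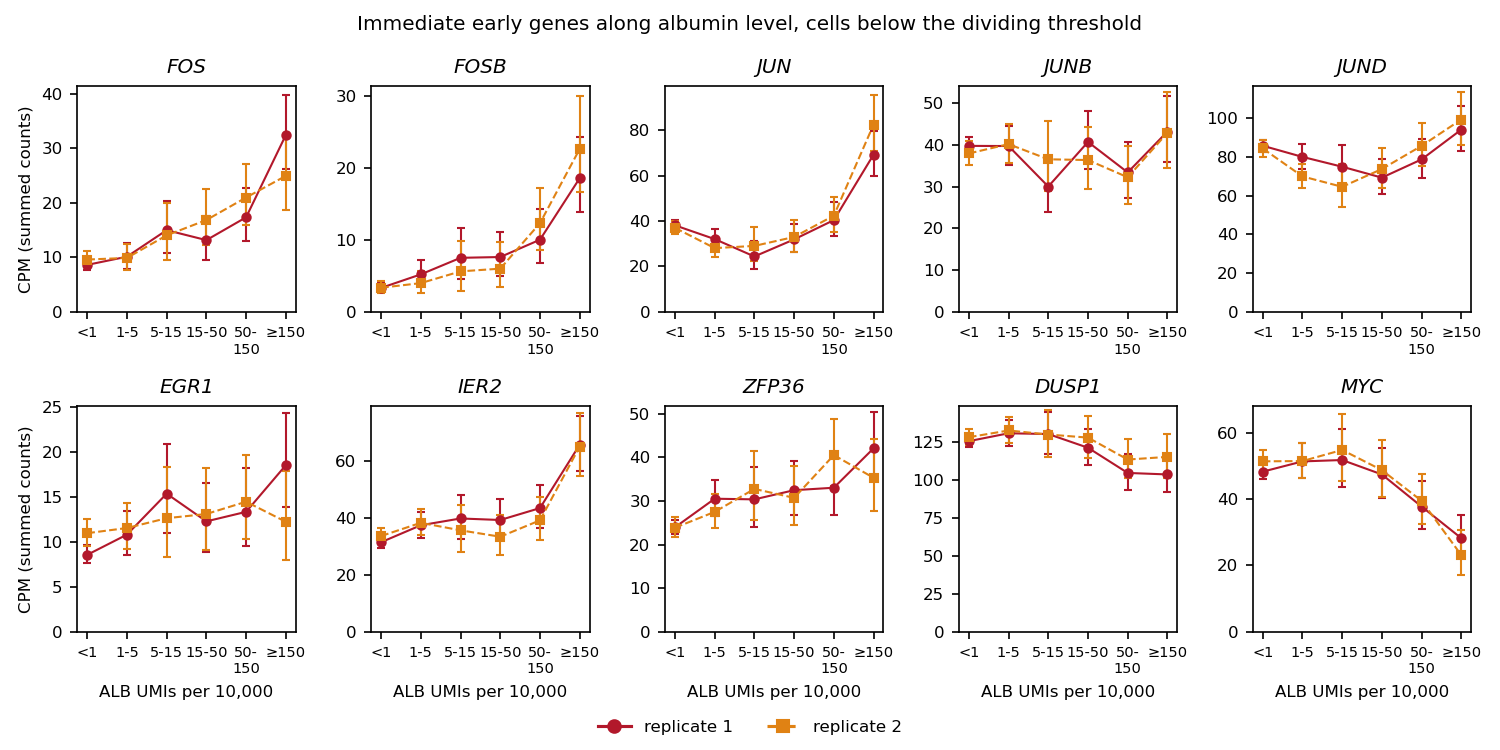
Level of each gene in CPM of summed counts (y axis from 0) in 6 bins of albumin UMIs per 10000, for cells under the dividing threshold, with 1 line per library and bars for the 95% exact Poisson interval. In the top bin FOS reaches 32.5 and 25 CPM and FOSB 18.5 and 22.6 CPM in replicates 1 and 2, JUN dips and then reaches 69.2 and 82.4 CPM, and MYC drops in the last 2 bins.

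Per cell these transcripts were sparse. With every cell thinned to 8000 UMIs, FOS was found in 15.4 and 15.7% of ALB-high cells, 7.04 and 6.87% of dividing cells and 7.02 and 6.69% of remaining cells of replicates 1 and 2. FOSB was found in 9.70 and 10.5% of ALB-high cells, 2.83 and 2.94% of dividing cells and 3.34 and 2.61% of remaining cells. EGR1 was found in 12.4 and 9.97%, 5.59 and 5.28%, and 6.10 and 7.67% of cells in the same order. A larger share of ALB-high cells thus held each of these transcripts at this depth. For EGR1 this depended on the depth: at 4000 UMIs it was found in 4.59 and 2.99% of ALB-high cells, 3.20 and 3.21% of dividing cells and 2.87 and 4.54% of remaining cells, so the classes overlapped. MYC was found in 20.1 and 20.2% of ALB-high cells, 23.0 and 24.2% of dividing cells and 28.5 and 31.0% of remaining cells. DUSP1, the most widely found, was in 47.2 and 53.6% of ALB-high cells, 53.8 and 54.5% of dividing cells and 53.1 and 53.6% of remaining cells. Thinning to 8000 UMIs left out 7 and 56 ALB-high cells, 57 and 281 dividing cells and 107 and 847 remaining cells. Without thinning FOS was in 36.3 and 23.6% of ALB-high cells, 15.3 and 10.0% of dividing cells and 12.9 and 9.1% of remaining cells. No class in these cultures is known to lack immediate early genes, so a background share from free RNA could not be read.

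Cells with many of the genes at once were more frequent among ALB-high cells. At 8000 UMIs, 5 or more of the 10 genes were found in 11.7 and 12.8% of ALB-high cells, 5.59 and 4.75% of dividing cells and 5.87 and 5.16% of remaining cells. Several single genes were also found in more ALB-high cells. The share that follows from the single genes alone was not computed, so these values do not measure joint expression. The mean number of genes found per cell was 2.60 and 2.67 in ALB-high cells, 2.21 and 2.13 in dividing cells and 2.28 and 2.24 in remaining cells. None of the 10 transcripts was found in 6.69 and 6.84% of ALB-high cells, 8.93 and 10.04% of dividing cells and 7.71 and 7.87% of remaining cells at 8000 UMIs. At 4000 UMIs these shares were 24.6 and 21.4%, 24.0 and 26.6%, and 23.8 and 24.1% in the same order. No cell had more than 7 UMIs of any of these genes at 4000 UMIs. The Fano factor, the variance over the mean across cells, was 1.18 to 1.40 for DUSP1, 1.13 to 1.33 for JUN and 0.98 to 1.06 for ZFP36 over classes and libraries, where 1 is pure counting noise. This factor grows with the mean level, so the genes cannot be ranked by it.

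Correlations between the genes across cells, at 4000 UMIs and on the log2(count + 1) scale, were weak. They are given as a description, since cells of a class share a library and sparse counts hold r down. Over genes found in at least 10% of cells, the median Pearson r between pairs was 0.034 and 0.009 in ALB-high cells (21 pairs, 305 and 402 cells), 0.015 and 0.025 in dividing cells (10 pairs, 1406 and 1591 cells) and 0.003 and 0.020 in remaining cells (15 pairs, 2679 and 2818 cells). Over all pairs of genes that passed the same detection filter, the median lay between -1.7e-04 and 3.5e-04 over classes and libraries. JUN with IER2 had r = 0.150 and 0.149 in ALB-high cells, where the 95th percentile of filtered gene pairs was 0.102 and 0.089. With the genes found in fewer cells included, FOS with EGR1 was the highest pair in ALB-high cells by the mean of the libraries (0.123 and 0.186), but it rests on 3 and 4 cells that held both transcripts. By the same mean, EGR1 with IER2 was the highest pair in dividing cells (0.098 and 0.094) and in remaining cells (0.109 and 0.085), and JUNB with IER2 the lowest in ALB-high cells (-0.118 and -0.071). The pairs of MYC, as means of the libraries, lay between -0.035 and 0.081 in ALB-high cells, -0.028 and 0.036 in dividing cells and -0.016 and 0.017 in remaining cells. No weak r of this kind is a finding by itself. Correlations of single genes with the mitochondrial share of a cell lay between -0.141 and 0.088, and those with its depth before thinning between -0.124 and 0.107.

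**Figure D4:**
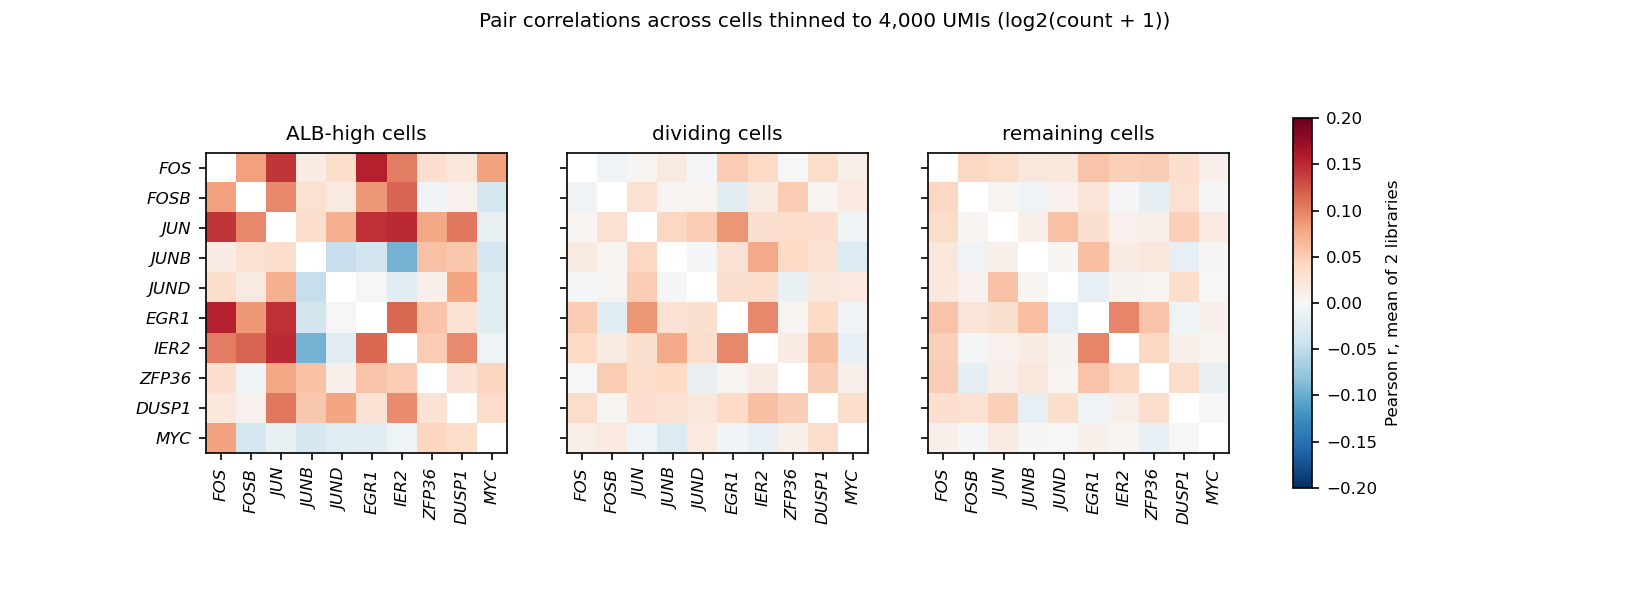
Pearson correlation between each pair of the 10 genes across cells thinned to 4000 UMIs, as the mean of the 2 libraries, in ALB-high, dividing and remaining cells (colour scale from -0.2 to 0.2). The pairs among FOS, JUN, EGR1 and IER2 in the ALB-high panel are among the darkest red. The MYC row is pale in the dividing and remaining panels, and its highest pair in the ALB-high panel is FOS with MYC (0.081).

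The genes most like the set were sought in remaining cells, by r with the mean of the standardised values of the 6 genes found in at least 10% of cells (JUN, JUNB, JUND, IER2, DUSP1 and MYC) over 6258 genes. CCN1, a secreted matrix protein and itself an immediate early gene, came first at a mean r of 0.143 over the libraries. Among the 10 most alike, IER3, an early gene of stress signals, stood at 0.113. ANKRD1 (0.101), CREB5 (0.098), ACTB (0.096), TNFRSF12A (0.094), CLIC1 (0.092), TPM1 (0.091) and LGALS1 (0.087) were also among them. By single gene, the nearest was CCN1 for JUN and for DUSP1, FN1 for JUNB, CREB5 for JUND, B2M for IER2 and GNPNAT1 for MYC. CCN1 was lower in ALB-high cells (54.4 ± 12 CPM) than in remaining cells (185 ± 1.97 CPM).

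Over all genes tested, 24.3% were higher and 23.9% lower in ALB-high than in remaining cells, and 25% were higher and 24.0% lower in dividing than in remaining cells. The counts of the lists below stand against these shares. Of 41 other immediate early genes, 37 were tested, and 12 were higher and 9 lower in ALB-high than in remaining cells (median log2 fold change 0.07), near the share over all genes. ID2, a partner that blocks DNA binding by helix-loop-helix factors, was at 87.0 ± 3.64 CPM in ALB-high cells, against 31.7 ± 0.30 CPM in remaining cells (1.59 ± 0.06, edgeR adjusted p = 1.63e-14). CCN1 was the lowest called (-1.67 ± 0.07), and the kinase gene PLK2 was also lower (-0.92 ± 0.05). Between dividing and remaining cells 15 were higher and 12 lower. The AP-1 subunit FOSL1 was at 47.4 ± 0.54 CPM in dividing cells, against 25.2 ± 0.73 CPM in remaining cells (0.95 ± 0.05, edgeR adjusted p = 1.91e-12), and TRIB1, a pseudokinase, was at 1.27 ± 0.11 CPM in dividing cells, against 3.48 ± 0.12 CPM in remaining cells (-1.40 ± 0.19).

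Early genes of NF-kB, the factor of inflammatory signals, were mostly higher in ALB-high cells: of 16 tested, 13 were higher and 1 lower than in remaining cells, with a median log2 fold change of 0.58. SOD2, the mitochondrial superoxide dismutase, was at 1195 ± 22.3 CPM in ALB-high cells, against 323 ± 1.90 CPM in remaining cells (2.01 ± 0.03, edgeR adjusted p = 2.2e-21). NFKBIZ, a nuclear IkB protein, was at 29.8 ± 1.22 CPM in ALB-high cells, against 7.58 ± 1.27 CPM in remaining cells (2.12 ± 0.11). NFKBIA, the IkB that holds NF-kB in the cytoplasm, was at 87.7 ± 8.39 CPM in ALB-high cells, against 81.1 ± 2.68 CPM in remaining cells (0.23 ± 0.05, edgeR adjusted p = 0.00118). The chemokine CXCL3 was the 1 lower gene (-0.61 ± 0.17). In dividing cells 1 of the 16 was higher (BIRC3, 0.72 ± 0.03) and 9 were lower than in remaining cells, with the chemokine CXCL1 the lowest (-1.37 ± 0.14). Hepatocyte markers moved with the ALB-high class as given above, and several NF-kB genes, SOD2 among them, are also known as genes of the hepatic acute phase.

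Upstream of the set, 11 of 28 kinases, receptors and factors were higher and 8 lower in ALB-high than in remaining cells, against 24.3% and 23.9% of all genes. ERBB3, a receptor of neuregulins, had 47.2 ± 5.21 CPM in ALB-high cells, against 9.86 ± 0.52 CPM in remaining cells (2.40 ± 0.10), while ELK3, a partner of serum response factor, had 18.1 ± 0.97 CPM in ALB-high cells, against 43.4 ± 0.24 CPM in remaining cells (-1.14 ± 0.09). EGFR was lower (-0.19 ± 0.04), as was MRTFA, a coactivator of serum response factor (-0.79 ± 0.05). In dividing cells 12 were higher and 4 lower. Among 18 feedback genes of the ERK pathway, 6 were higher and 5 lower in ALB-high than in remaining cells, near the share over all genes. ERRFI1, which inhibits EGFR, had 235 ± 1.36 CPM in ALB-high cells, against 75.6 ± 0.57 CPM in remaining cells (1.76 ± 0.04). DUSP10, a phosphatase of the same family as DUSP1, had 13.1 ± 3.11 CPM in ALB-high cells, against 38.5 ± 1.27 CPM in remaining cells (-1.46 ± 0.11), and SPRED1 was lower as well (-0.94 ± 0.10). In dividing cells 2 of the 18 were higher and 8 lower, DUSP4 at -1.25 ± 0.20.

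Among 18 other AP-1 and ATF proteins, 8 were higher and 4 lower in ALB-high cells, BATF3 at -1.43 ± 0.31. In dividing cells 9 were higher and 5 lower, and ATF4, the factor of the integrated stress response, had 131 ± 0.33 CPM in dividing cells, against 74.2 ± 4.14 CPM in remaining cells (0.87 ± 0.04). Proteins that bind AU-rich elements, as ZFP36 does, or that carry out the decay, were mostly higher in dividing cells, with 11 of 13 higher and 0 lower than in remaining cells. Their median log2 fold change was 0.29. The decapping enzyme DCP2 had 53.7 ± 0.44 CPM in dividing cells, against 24.1 ± 0.09 CPM in remaining cells (1.19 ± 0.05), and HNRNPD had 335 ± 5.78 CPM in dividing cells, against 256 ± 2.30 CPM in remaining cells (0.43 ± 0.03). In ALB-high cells 2 of the 13 were higher and 5 lower. ZFP36L1, a relative of ZFP36, was higher (0.67 ± 0.04), as ZFP36 was (0.65), and HNRNPD was lower (-0.43 ± 0.04).

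MYC was lower in both classes than in remaining cells. Of 12 tested partners in its network, 4 were higher and 2 lower in ALB-high cells, and 5 were higher and 4 lower in dividing cells. MXD3, a MAX partner that opposes MYC, had 44.5 ± 0.08 CPM in dividing cells, against 4.70 ± 0.82 CPM in remaining cells (3.32 ± 0.08), and 12.1 ± 0.87 CPM in ALB-high cells (1.51 ± 0.16). MXD4, of the same family, was lower in both (-0.47 ± 0.04 and -0.38 ± 0.06). Of 28 listed MYC targets, 7 were higher and 14 lower in ALB-high than in remaining cells (median -0.19), among them the nucleolar proteins NPM1 (620 ± 11.0 CPM in ALB-high cells, against 1133 ± 5.19 CPM in remaining cells, -0.74 ± 0.05) and NCL (-0.56 ± 0.03). ODC1, the polyamine enzyme and a classical MYC target, was higher (0.40 ± 0.05). In dividing cells 17 of the 28 were higher and 6 lower (median 0.14), EIF4E at 0.58 ± 0.04 and POLR1B at -0.32 ± 0.06. The targets thus stood mostly higher in dividing cells, where the MYC transcript itself was lower.

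Of 14 heat shock genes that are often seen with immediate early genes after tissue dissociation, 6 were higher and 5 lower in ALB-high than in remaining cells (median -0.03), and 12 were higher and 1 lower in dividing cells (median 0.46). HSPA1A, the inducible HSP70, had 34.9 ± 3.84 CPM in ALB-high cells, 50.6 ± 0.90 CPM in dividing cells and 28.9 ± 1.65 CPM in remaining cells, and its near-identical copy HSPA1B can share its reads. HSPA1A was called higher in ALB-high than in remaining cells (0.39 ± 0.08, edgeR adjusted p = 3.7e-04), as was its co-chaperone DNAJB1 (0.58 ± 0.08, edgeR adjusted p = 5.83e-06). HSPB1 had 122 ± 2.69 CPM in ALB-high cells, 329 ± 3.41 CPM in dividing cells and 289 ± 11.7 CPM in remaining cells. Markers of other cell types moved with the classes too: the summed level of 13 mesenchymal markers was 59.7 and 71.0 CPM in ALB-high cells, 216 and 235 CPM in dividing cells, and 268 and 275 CPM in remaining cells, with COL1A2 and THY1 at 0 in ALB-high cells of both libraries. The summed level of 7 biliary markers was 474 and 510 CPM in ALB-high cells, 671 and 676 CPM in dividing cells, and 1007 and 1022 CPM in remaining cells. The biliary markers did not move together: of 5 tested, 2 were higher and 3 lower in ALB-high than in remaining cells. KRT19, the most abundant (616 CPM over all cells), was lower (-1.55 ± 0.04). SPP1 was higher, at 93.9 ± 14.4 CPM in ALB-high cells, against 14.8 ± 0.36 CPM in remaining cells. The part of a mixture of cell types in the levels of remaining cells was not tested.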

How the data were processed

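The authors deposited UMI counts per gene and cell barcode, made with Cell Ranger 7.0.0 per the file headers; the submitters' processing notes name STAR and GRCh38. The sources used here do not give the annotation release, nor how intronic reads and strand were handled. The 12 antibody features held 0 UMIs and were not used.

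Barcodes with at least 500 genes, 1000 UMIs and at most 25% mitochondrial UMIs were kept, which removed 137 and 104. Doublets were not called; removing the 4% of cells with the most UMIs was an alternative. Cells past both class thresholds (49 and 50) counted as ALB-high. Between 40 and 50 ALB UMIs per 10000 lay 43 and 50 cells, and between 50 and 60 lay 22 and 48; between 8 and 10 of the dividing sum lay 163 and 180 cells, and between 10 and 12 lay 147 and 179.

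Counts were summed per library and class (6 sums, 19098 genes after edgeR's count filter) and tested with edgeR 4.0.16's quasi-likelihood test, TMM scaling, the library as a block and Benjamini-Hochberg adjustment at 0.05, with 2 residual degrees of freedom shared across genes. The sums of a library are paired, since its classes are cells of 1 suspension. Each SE is the log2 fold change over the square root of F. CPM is scaled by totals, so small differences can differ in sign from fold changes. Intervals (95%, Clopper-Pearson or Poisson) cover counting error only. On simulated counts over 18939 genes, with changes put into the ALB-high sums, edgeR compared ALB-high with remaining cells. It recovered 40, 45, 50 and 49 of 50 genes changed 1.5-, 2-, 4- and 8-fold, with 9 false calls. The simulation used pooled gene means, the same dispersion for every gene and far fewer changed genes than were called in these data. It does not give the power or false-call rate of the real comparisons. DESeq2 1.42.0 was an alternative. Promoters came from a RefSeq table. Named list genes are the 3 most abundant and the highest and lowest called of each list. A few genes that this rule or the likeness ranking names are not reported here. The members and lists were chosen with earlier results of these data known. Software was Python 3.11.15 and R 4.3.3.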

Additional observations from a re-analysis of the deposited data

How the results depend on the processing

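The 6 counts of called genes were recomputed under 17 alternatives with a test each. With library totals as scaling, 2 of the 10 genes were lower in ALB-high than in remaining cells and 2 lower than in dividing cells (main counts 1 and 0). Of all genes called in these comparisons at this scaling, 36.3% and 40.6% were higher. With dividing cells set at 20 per 10000 or more, 0 genes were higher and 6 lower in dividing than in remaining cells (main counts 1 and 3). DUSP1 turned to -0.11 there (edgeR adjusted p = 0.0179, main value 0.05, not called). Of all genes called at this setting, 51.7% were higher. The share of all tested genes called lower is not reported here for each setting, so these counts give no direction of the set. With cells past both thresholds counted as dividing, 1 gene was lower in ALB-high than in dividing cells. Without the replicate block all 6 counts were the same (7, 1, 1, 3, 6 and 0). The median pair correlation was 0.067, 0.028 and 0.025 in ALB-high, dividing and remaining cells thinned to 8000 UMIs, and 0.120, 0.062 and 0.042 unthinned, against 0.022, 0.020 and 0.012; at 8000 UMIs 28, 21 and 21 pairs passed the detection filter, against 21, 10 and 15, in fewer cells, and unthinned cells keep their differences in depth. Over all genes, calls for ALB-high over remaining cells ranged from 2814 to 4914 higher and 2610 to 6263 lower (main 4633 and 4573), for dividing over remaining from 2330 to 4863 and 2221 to 5353 (main 4778 and 4591), and for ALB-high over dividing from 3369 to 5380 and 3616 to 6590 (main 5148 and 5721). With 1 library left out there are no residual degrees of freedom, so those fold changes are values without a test. They are log2 ratios of CPM, scaled by totals and not by TMM, and the ranges below include them. Over all alternatives the log2 fold change of ALB-high over remaining cells ranged from 1.09 to 1.55 for FOS, 1.65 to 2.14 for FOSB, 0.55 to 1.01 for JUN, 0.55 to 0.94 for IER2, 0.49 to 0.74 for ZFP36, 0.32 to 0.82 for EGR1 and -0.69 to -0.34 for MYC. The cause of the other moves was not tested. FOS, EGR1 and FOSB rest on 82 to 170 UMIs in ALB-high cells, which limits their precision.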
